A study of Mus musculus with 8 samples.

Results

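The genes described here are 38 factors of ribosome biogenesis and RNA polymerase I, taken by symbol from the deposited table of raw counts, which holds 52459 symbols. They fall into 8 proteins of small nucleolar ribonucleoproteins (snoRNPs), 5 abundant nucleolar proteins, 11 factors of small subunit assembly, 9 factors of large subunit assembly and 5 proteins of the RNA polymerase I machinery. All 38 had a row, all matched a gene of GENCODE vM21, and all passed the filter on low counts that left 14085 genes for testing. Their levels were compared across 4 treatment groups of lung tumour nodules.

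Ribosome production starts in the nucleolus, where RNA polymerase I transcribes the long precursor of the ribosomal RNAs. Guided by small nucleolar RNAs, snoRNPs then modify and cleave that precursor, while assembly factors fold and trim it into the small and the large subunit. Growing tumour cells need many ribosomes, and transcription factors of the MYC family, which bind the E-box CACGTG, are known activators of these genes. JQ1 is a small molecule that blocks the bromodomains of BET proteins, readers of acetylated histones that support transcription of MYC and of other genes. The receptor PD-1 restrains T cells, and an antibody against it releases that brake.

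The libraries came from frozen tumour nodules of mice of mixed background that all carried 1 genetically engineered model, so that vehicle mice carried the same alleles as treated mice. The 4 groups were vehicle, JQ1, anti-PD-1 and the combination of JQ1 with anti-PD-1, with 2 libraries in each group. Neither the form of the alleles nor the driver of recombination, the dose, the duration of treatment or the age of the mice is given in the sources used here. By Xist and Y-linked counts both vehicle libraries are male, whereas every other group holds 1 male and 1 female library. For vehicle nothing says that the 2 libraries came from separate mice, so p-values measure the spread between these libraries, part of which may be technical.

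Combination replicate 1 was the shallowest library, with 2719816 counts, and vehicle replicate 2 the deepest, with 15224108, and the 38 genes together had 2078 counts in the former and 22448 in the latter. Counts of 358 ribosomal RNA genes took 22.7% ± 1.32 of a library in vehicle, 23.8% ± 0.457 in anti-PD-1, 31.3% ± 5.19 in JQ1 and 49.2% ± 4.62 in the combination (mean ± SD, n = 2 in each group). Since the kit captured coding regions with probes, that share is not a measurement of ribosomal RNA synthesis. Summed over 10 markers of lung tumour epithelium, the level was between 5700 and 10190 CPM (counts per 1000000 of a library's tested counts, scaled by TMM factors) in each of the 8 libraries. That sum does not show the single markers. In the combination against vehicle 6 of the 10 had positive and 4 negative log2 fold changes, from −1.63 to 1.07. By edgeR 1 passed at an adjusted p under 0.05, lower, beside 4.8% of all tested genes in either direction. Sftpc, Sftpb and Nkx2-1 among the 10 are also markers of alveolar type 2 cells. Tumour nodules also hold other cells, and in such bulk RNA fewer cells of a type and less RNA per cell cannot be told apart.

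Per kilobase of exon, Npm1 and Ncl stood highest in vehicle. The mean level was 78.9 CPM per kilobase for Npm1, a histone chaperone and export factor of pre-ribosomes, and 24.8 for Ncl, nucleolin. Next in order were Nop56 at 17.9, Bms1 at 14.9 and Wdr43 at 14.2 CPM per kilobase. At the low end were Utp20 at 0.909 and Gar1 at 0.914, so these 38 genes span a wide range of transcript levels. In the combination Npm1 and Ncl still led, with 51.1 and 18.6 CPM per kilobase, while Nop56 at 4.47 stood below Bms1, Pes1, Ubtf, Wdr43 and Tsr1. These per-length levels use all annotated exon bases and were not tested between genes.

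Most of the 38 genes had a negative log2 fold change in the combination, whether set against vehicle, anti-PD-1 or JQ1. The snoRNP genes Nop56 and Rrp9 passed the test against vehicle, while neither JQ1 nor anti-PD-1 alone moved any of the 38 genes past it. Summed over the 38 genes, the level was 1177 and 1288 CPM in the vehicle libraries, 1343 and 1212 in JQ1, 1144 and 1208 in anti-PD-1, and 875 and 772 in the combination. Both combination libraries lay below the other 6, and the vehicle libraries overlapped with those of JQ1 and of anti-PD-1. In each combination library taken alone the same side was seen. Of the 38 genes, 26 in replicate 1 and 23 in replicate 2 were below both vehicle libraries, or 68.4% and 60.5%, against 43.6% and 41.7% of all tested genes in the same libraries.

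**Figure D1:**
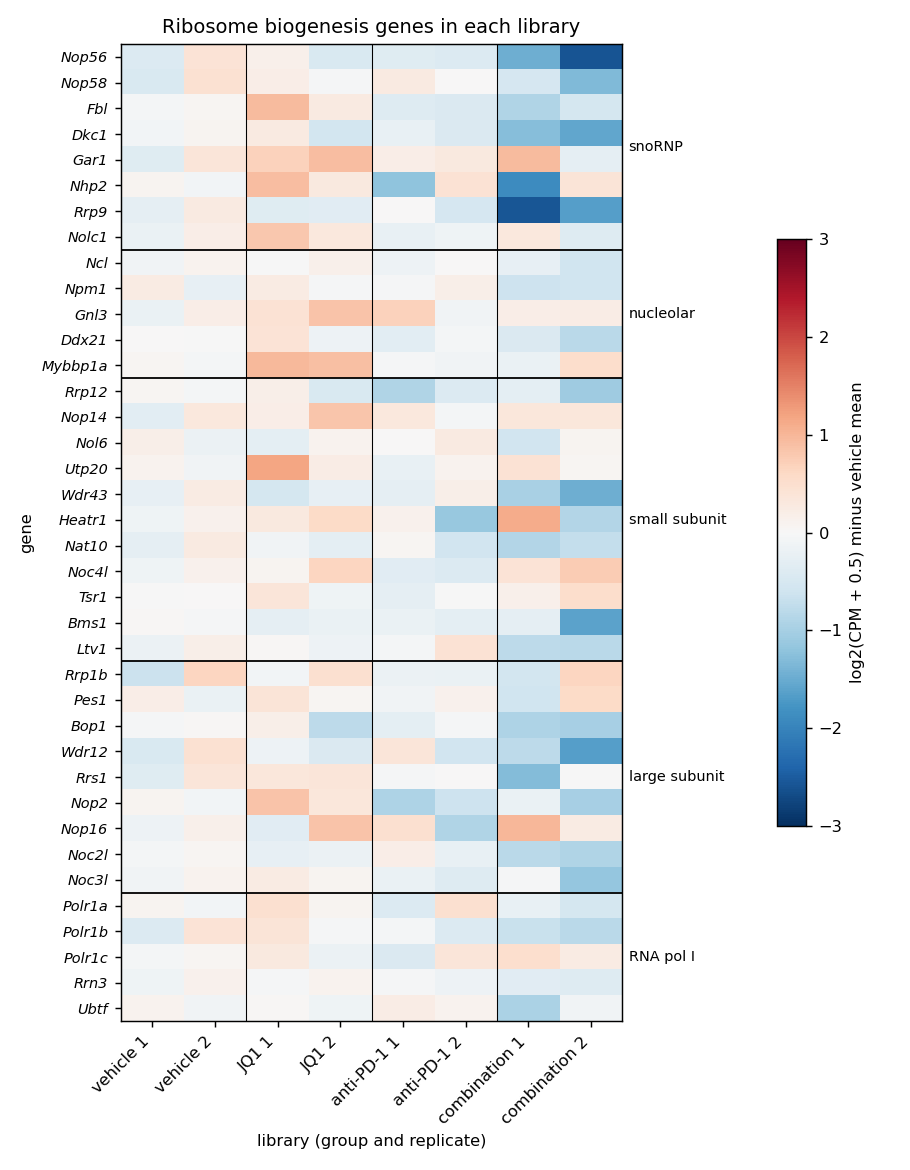
Level of each of the 38 genes (rows, grouped by role) in each of the 8 libraries (columns), as log2(CPM + 0.5) minus the mean of the vehicle libraries; blue is below vehicle and red above. The darkest blue cells are Nop56 in combination replicate 2 and Rrp9 in combination replicate 1, and most rows of the JQ1 and anti-PD-1 columns are pale.

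Against vehicle, 2 of the 38 genes passed the edgeR quasi-likelihood test in the combination at an adjusted p of 0.05, both lower, where 4.8% of all tested genes passed in either direction and 2.36% were lower. The share of 5.26% is thus near the background in either direction. The log2 fold changes of the 38 genes had a median of −0.49, with a range from −2.16 to 0.73, and the median over all tested genes was 0.07. Negative values were found for 26 of 38 genes, beside 47.6% of all tested genes. At an unadjusted p under 0.05, 11 of the 38 genes were lower and 0 were higher, beside 13.1% and 14.2% of all genes. For 20 of the 38 genes (52.6%) both combination libraries were below both vehicle libraries, which held for 29.1% of all tested genes. Both were above for 5 genes, Nop14, Noc4l, Tsr1, Nop16 and Polr1c, that is 13.2% beside 29.5% of all genes.

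**Figure D2:**
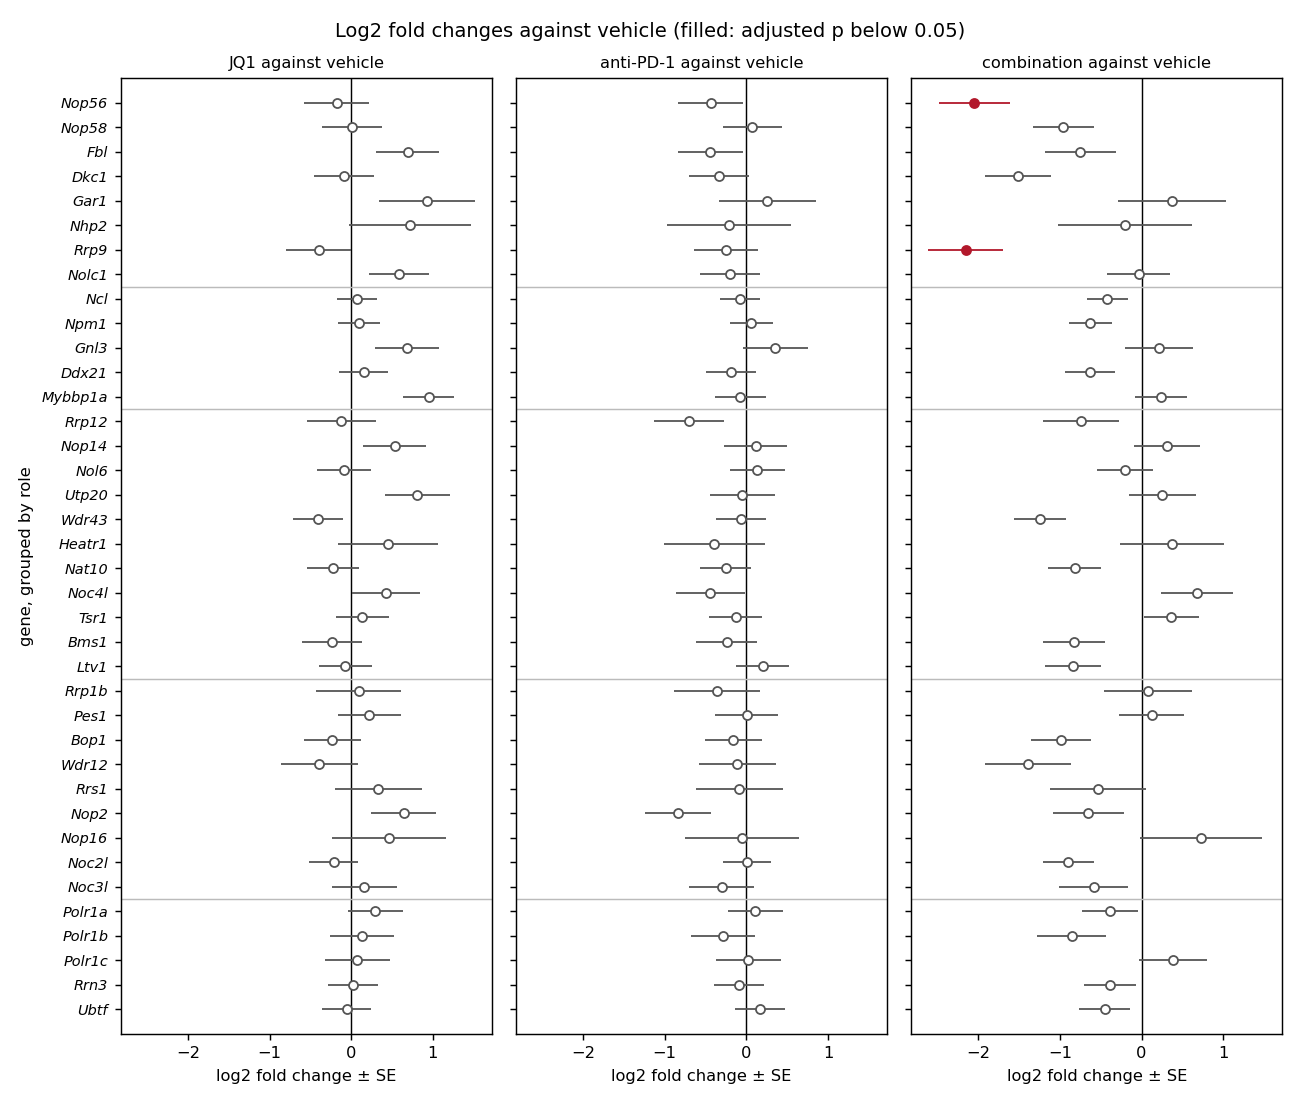
Log2 fold change with its standard error for each of the 38 genes (rows, grouped by role) in JQ1, anti-PD-1 and the combination against vehicle (panels, same scale). Filled points are genes with an adjusted p under 0.05, which are Nop56 and Rrp9 in the combination and none in the other panels.

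The calls rest on few libraries. Nop56 no longer passed without vehicle replicate 1 or 2 (adjusted p = 0.0911 and 0.213), anti-PD-1 replicate 1 or 2 (0.0525 and 0.0524) or combination replicate 2 (0.138), and Rrp9 without either replicate of vehicle, anti-PD-1 or the combination, all by edgeR. Without combination replicate 1, the shallowest library, 3 genes passed, beside 7.4% of all tested genes: Nop56 at −2.70, Wdr43 at −1.50 and Bms1 at −1.64. With total counts in place of TMM factors 10 genes were called, beside 14% of all tested genes, but that scaling moved the median of all tested genes to −0.46, and the median of the 38 genes was then −1.03.

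The snoRNP genes had the lowest median of the 5 roles in the combination, −0.85 against vehicle. Of these 8 genes 7 were negative and 2 called, beside 47.6% negative and 4.8% called of all tested genes. Nop56, a core protein of the snoRNPs that guide ribose methylation, lies at chromosome 2, 130274430 to 130279313 on GRCm38. It had 53.4 and 93.4 CPM in vehicle, 78.7 and 51.6 in JQ1, 55.1 and 53.4 in anti-PD-1, and 25.3 and 11.4 in the combination. Both combination libraries were below all 6 others, and the other 3 groups overlapped. Its mean fell from 73.4 ± 28.3 CPM in vehicle to 18.3 ± 9.82 in the combination (SD, n = 2 each), a log2 fold change of −2.05 (SE 0.43, edgeR adjusted p = 0.0340). With the ribosomal RNA share added to the fit that value was −1.12 (edgeR adjusted p = 0.883), and the −2.16 of Rrp9, described next, was −2.80 (adjusted p = 0.712). That share was higher in both combination libraries than in all 6 others, so this term and the combination cannot be fully told apart.

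Rrp9, a protein of the U3 snoRNP that is needed for early cleavage of the small subunit precursor, lies at chromosome 9, 106475963 to 106485424. It had 10.3 and 15.2 CPM in vehicle, 9.65 and 9.76 in JQ1, 12.7 and 8.73 in anti-PD-1, and 1.68 and 3.63 in the combination. These last values rest on 4 and 22 counts, beside 135 and 265 counts in the vehicle libraries. The combination libraries were again below all others, and the log2 fold change against vehicle was −2.16 (SE 0.46, edgeR adjusted p = 0.0347). The exons of Rrp9 share 20 bases with Parp3 and those of Nop56 share 5 bases with Idh3b, each on the opposite strand. Whether reads were counted by strand is not given. Idh3b and Parp3 themselves had log2 fold changes of −0.55 and 0.23 and did not pass (adjusted p = 0.211 and 0.708).

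Dkc1, the pseudouridine synthase of the other snoRNP class, came close to the threshold. It had 14.2 and 15.9 CPM in vehicle, 18.2 and 10.1 in JQ1, 12.9 and 11.0 in anti-PD-1, and 5.89 and 4.78 in the combination. Its log2 fold change of −1.52 (SE 0.40) missed the threshold by edgeR (adjusted p = 0.0565). This gene is on chromosome X, and the sexes differ between groups as given above. Nop58, the paralog and partner of Nop56, had 48.0 and 26.9 CPM in the combination, below all other libraries, which ranged from 49.2 to 94.3. The gap of Nop58 to vehicle replicate 1 was small, and its log2 fold change of −0.96 (SE 0.38) did not pass (edgeR adjusted p = 0.138).

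Fbl, the ribose methyltransferase of the same particles, was below the other 6 libraries too, at 2.95 and 3.96 CPM beside 4.32 to 12.1. These values rest on 7 and 24 counts, and the gap to the lowest other library was small. Its log2 fold change of −0.75 (SE 0.43) did not pass (edgeR adjusted p = 0.283). Gar1, which joins Dkc1, had the highest fold change of the snoRNP genes in the combination, 0.37 (SE 0.66). Its level was 1.07 and 2.07 CPM in vehicle, 2.73 and 3.31 in JQ1, 1.82 and 1.97 in anti-PD-1, and 3.37 and 1.15 in the combination, so the combination libraries were the highest and the next to lowest of all. Nhp2, another partner of Dkc1, was measured with 1 count in combination replicate 1, and Nolc1, a snoRNP chaperone, had a log2 fold change of −0.03 (SE 0.38). Fbl, Gar1, Nhp2 and the called Rrp9 all had under 10 counts in combination replicate 1, so their levels there are imprecise. For Fbl, Gar1 and Nhp2 a difference from vehicle was not shown.

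**Figure D3:**
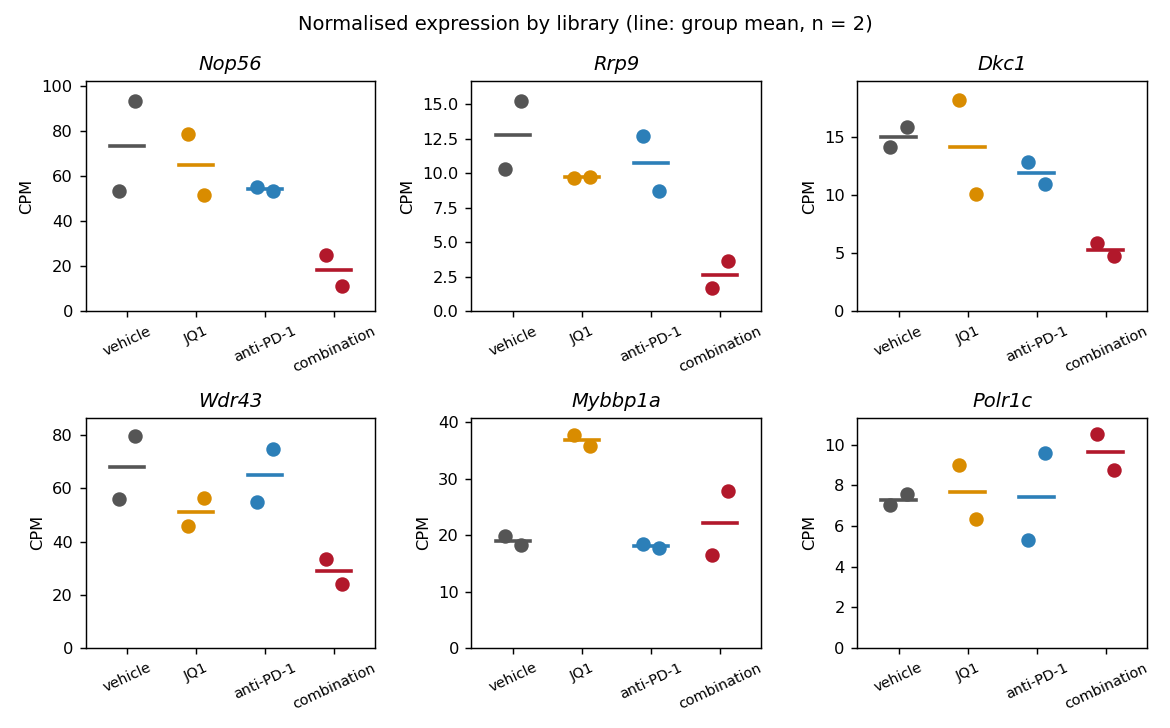
CPM in each library (points) by treatment group, with the group mean (line, n = 2), for 6 genes: the 2 genes called in the combination, Dkc1 and Wdr43 next to them by p, Mybbp1a with the smallest p in JQ1 against vehicle, and Polr1c as the highest of the RNA polymerase I genes in the combination. In the panels of Nop56, Rrp9, Dkc1 and Wdr43 both combination points lie below the other 6, while Mybbp1a is highest in both JQ1 libraries.

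Upstream sequence is shown for the 4 genes with the smallest p when JQ1 is averaged over both backgrounds, that is with and without anti-PD-1, since MYC proteins bind E-boxes in promoters and these genes differ in direction. Each run is the 250 bases before a RefSeq start site on GRCm38.p6, plus strand, 5′ to 3′. The Rrp9 window is chr9:106477059-106477308 and the Wdr43 window is chr17:71615965-71616214. Both of these lie inside the longer GENCODE gene, which for Wdr43 starts at 71615895. The Nop56 window is chr2:130274162-130274411 and the Mybbp1a window is chr11:72441077-72441326. The Rrn3 window, chr16:13780449-13780698, was added after its values were seen because it holds 2 copies of CACGTG, printed in capitals.
Rrp9: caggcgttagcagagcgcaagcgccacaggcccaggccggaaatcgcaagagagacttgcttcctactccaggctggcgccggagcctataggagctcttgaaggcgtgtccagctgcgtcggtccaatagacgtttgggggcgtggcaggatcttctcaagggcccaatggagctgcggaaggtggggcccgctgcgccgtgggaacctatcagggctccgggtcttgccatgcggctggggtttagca
Nop56: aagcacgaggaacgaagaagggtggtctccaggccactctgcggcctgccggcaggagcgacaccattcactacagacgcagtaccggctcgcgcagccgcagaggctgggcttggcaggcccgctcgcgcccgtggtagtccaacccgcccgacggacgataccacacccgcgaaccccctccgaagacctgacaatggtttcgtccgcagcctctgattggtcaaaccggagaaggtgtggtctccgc
Wdr43: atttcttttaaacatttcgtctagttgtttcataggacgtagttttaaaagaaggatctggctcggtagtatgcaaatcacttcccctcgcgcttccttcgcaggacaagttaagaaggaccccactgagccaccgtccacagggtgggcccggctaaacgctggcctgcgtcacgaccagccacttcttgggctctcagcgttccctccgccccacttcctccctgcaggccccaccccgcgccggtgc
Mybbp1a: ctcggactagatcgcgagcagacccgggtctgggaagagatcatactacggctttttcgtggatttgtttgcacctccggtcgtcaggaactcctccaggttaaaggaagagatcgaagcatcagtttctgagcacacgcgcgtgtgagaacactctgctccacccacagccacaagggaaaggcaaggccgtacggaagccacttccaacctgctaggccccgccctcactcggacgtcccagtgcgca
Rrn3: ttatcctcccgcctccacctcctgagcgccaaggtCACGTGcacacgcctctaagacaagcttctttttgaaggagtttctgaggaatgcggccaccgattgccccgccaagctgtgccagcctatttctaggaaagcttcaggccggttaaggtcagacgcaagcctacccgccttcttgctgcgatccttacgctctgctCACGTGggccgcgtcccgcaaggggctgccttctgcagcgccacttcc

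None of the 4 chosen upstream windows holds CACGTG, which reads the same on both strands. In Wdr43 and Mybbp1a it stands within the 50 bases after the start site. The 30 bases around it are chr17:71616220-71616249 for Wdr43 and chr11:72441347-72441376 for Mybbp1a, with the motif in capitals.
Wdr43: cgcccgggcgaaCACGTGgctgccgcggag
Mybbp1a: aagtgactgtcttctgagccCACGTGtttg

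Over windows from 250 bases before to 50 after a start site, 32 of the 38 genes had a RefSeq entry, and 8 of these 32 (25%) held CACGTG: Nop2, Ltv1, Utp20, Pes1, Mybbp1a, Tsr1, Rrn3 and Wdr43. By window, it was found in 8 of 41 (19.5%), beside 7.15% of all 32851 windows of the table and 9.63% of the windows of tested genes. Neither Rrp9 nor Nop56 had it in this window, which says only that these letters are not there. Among the 8 genes with the motif, the median log2 fold change of the combination against vehicle was −0.13, with 4 of 8 negative. Among the 24 genes without it the median was −0.44, with 16 of 24 negative. The variant CACGCG, searched on both strands after values had been seen, was in 9 of the 32 genes (28.1%), beside 19.7% of tested genes with an entry. Copies of the 2 motifs cannot overlap each other, and Pes1 and Mybbp1a held both.

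Among the 5 nucleolar proteins, Ncl, Npm1 and Ddx21 were below all other libraries in the combination, and none passed the test. Npm1 had 245 and 176 CPM in vehicle, 248 and 201 in JQ1, 203 and 236 in anti-PD-1, and 135 and 138 in the combination. Its log2 fold change of −0.63 (SE 0.26) had an edgeR adjusted p of 0.158. Npm1 is known for many processed pseudogenes, and how reads that match several copies were counted is not given, so its level is uncertain. Ncl had 213 and 166 CPM in the combination beside 228 to 281 in the other 6 libraries, and a log2 fold change of −0.42 (SE 0.25).

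Ddx21, an RNA helicase that links RNA polymerase I transcription to processing, had the lowest log2 fold change of these 5 in the combination against vehicle, next to Npm1. It had 33.0 and 32.2 CPM in vehicle, 43.2 and 29.3 in JQ1, 25.9 and 31.4 in anti-PD-1, and 24.0 and 18.5 in the combination. Both combination values lay under the lower anti-PD-1 library, replicate 1 by a small gap, and the log2 fold change against vehicle was −0.63 (SE 0.31). Mybbp1a, a nucleolar regulator of transcription, had 19.8 and 18.3 CPM in vehicle, 37.8 and 35.7 in JQ1, 18.5 and 17.7 in anti-PD-1, and 16.4 and 27.9 in the combination. Both JQ1 libraries were above all others, and the combination libraries straddled vehicle (log2 fold change 0.24, SE 0.32). Gnl3, nucleostemin, had 8.42 and 8.57 CPM in the combination, within the range of the other groups.

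Small subunit factors were mixed, with 6 of 11 negative in the combination against vehicle, a median of −0.21 and 0 called. Wdr43, a component of the early small subunit processome, had 56.1 and 79.7 CPM in vehicle, 45.9 and 56.3 in JQ1, 55.0 and 75.0 in anti-PD-1, and 33.7 and 24.1 in the combination. Both combination libraries were below the other 6. Its log2 fold change of −1.25 (SE 0.32) lay just beyond the threshold by edgeR (adjusted p = 0.0507), and DESeq2 called it together with Nop56, Rrp9 and Dkc1, beside 6.3% of all genes called by DESeq2. Nat10, which acetylates ribosomal RNA, and Ltv1, a late assembly factor, were also below all other libraries, with log2 fold changes of −0.82 (SE 0.32) and −0.84 (SE 0.34).

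The highest of this role was Noc4l, which forms a complex with Nop14. Noc4l had 3.28 and 4.07 CPM in vehicle, 3.88 and 6.01 in JQ1, 2.79 and 2.63 in anti-PD-1, and 5.05 and 6.59 in the combination. The combination libraries were above vehicle and anti-PD-1 but overlapped JQ1, and the log2 fold change against vehicle was 0.68 (SE 0.44, edgeR adjusted p = 0.333). Nop14 and Tsr1 were above both vehicle libraries too, at 0.31 and 0.37 on the log2 scale. Exons of Tsr1 share 1240 bases with Srr on the other strand. Heatr1, of the processome part that couples to transcription, was the highest of all libraries in combination replicate 1 (23.1 CPM) and near the bottom in replicate 2 (5.44 CPM). Bms1, a GTPase of the processome, had 59.8 and 23.2 CPM in the same libraries beside 59.3 to 73.4 elsewhere. Rrp12, Nol6 and Utp20 had log2 fold changes of −0.74, −0.21 and 0.25.

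Large subunit factors had a median of −0.59 in the combination against vehicle, with 6 of 9 negative and 0 called. Pes1, Bop1 and Wdr12 form 1 complex that is needed for large subunit maturation, and their values differed. Wdr12 had 8.55 and 16.8 CPM in vehicle, 10.7 and 8.72 in JQ1, 15.6 and 7.89 in anti-PD-1, and 6.73 and 3.46 in the combination. It was the lowest of this role, at −1.39 (SE 0.53, edgeR adjusted p = 0.128). Bop1 had 13.0 and 12.4 CPM in the combination beside 14.4 to 28.5 elsewhere, and a log2 fold change of −0.99 (SE 0.37). Pes1 had its lowest value of all libraries in combination replicate 1 (13.0 CPM) and its highest in replicate 2 (30.3 CPM), with a log2 fold change of 0.12 (SE 0.39). Differences between the 3 genes were not tested.

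Nop16 had the highest fold change in the combination of all 38 genes, 0.73 (SE 0.75), at a low level. It had 1.60 and 2.12 CPM in vehicle, 1.36 and 3.75 in JQ1, 2.79 and 0.751 in anti-PD-1, and 4.21 and 2.31 in the combination. The combination libraries were above vehicle but overlapped the JQ1 and anti-PD-1 groups. Noc2l was below all other libraries, at 11.8 and 11.0 CPM beside 17.8 to 24.4, with a log2 fold change of −0.90 (SE 0.31), and shares 598 exon bases with Samd11, which had 6 counts in all. Nop2, a methyltransferase of large subunit RNA, Noc3l, Rrs1 and Rrp1b had log2 fold changes of −0.65, −0.59, −0.53 and 0.08.

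Of the 5 RNA polymerase I genes, 4 were negative in the combination against vehicle and 0 passed, with a median of −0.38. Polr1b, the second largest subunit, had 7.71 and 14.0 CPM in vehicle, 13.8 and 10.1 in JQ1, 10.1 and 7.70 in anti-PD-1, and 6.31 and 5.77 in the combination. Both combination libraries were below the others, and its log2 fold change was −0.86 (SE 0.42, edgeR adjusted p = 0.217). Rrn3, the initiation factor that brings the polymerase to its promoter, was also below the others, at 11.8 and 11.4 CPM beside 13.5 to 16.5. Polr1a, the largest subunit, and Ubtf, which keeps ribosomal genes open, had log2 fold changes of −0.38 (SE 0.34) and −0.45 (SE 0.31).

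Polr1c, which RNA polymerase III shares, went the other way. It had 7.03 and 7.57 CPM in vehicle, 9.02 and 6.36 in JQ1, 5.31 and 9.58 in anti-PD-1, and 10.5 and 8.73 in the combination. The combination values were above vehicle and overlapped JQ1 and anti-PD-1, and the log2 fold change was 0.39 (SE 0.41, edgeR adjusted p = 0.570).

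**Figure D4:**
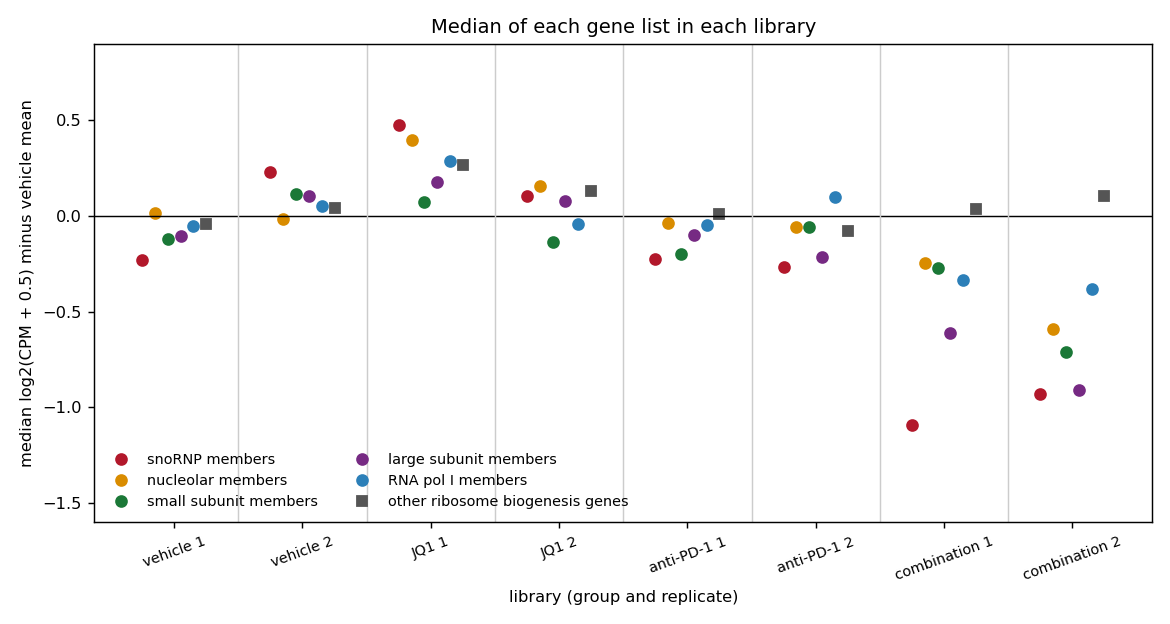
Median of log2(CPM + 0.5) minus the vehicle mean, over the genes of each role (circles) and over 146 other ribosome biogenesis genes (squares), in each of the 8 libraries. In both combination libraries all 5 circles are below 0 and the snoRNP genes are lowest, at −1.09 and −0.93, while the squares are at 0.03 and 0.11.

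The combination was also set against each agent given alone, and these comparisons share the combination libraries with the one above. Against anti-PD-1 the median of the 38 genes was −0.33, beside 0.05 over all tested genes, and 1 gene was called, Rrp9, at −1.91 (SE 0.46, edgeR adjusted p = 0.0475), where 4.23% of all genes passed. That call ended whichever of the 8 libraries was left out (adjusted p from 0.0519 to 0.190). Without combination replicate 1 the genes that passed were Nop56 at −2.26 and Bms1 at −1.40, beside 6.42% of all tested genes. Nop56 and Wdr43 followed at −1.61 (SE 0.43) and −1.18 (SE 0.32), with adjusted p of 0.0602 and 0.0605. Both combination libraries were below both anti-PD-1 libraries for 17 of 38 genes, beside 26.8% of all genes, and above for 3, beside 27.9%.

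Against JQ1 alone, 34 of 38 genes were negative, including all 8 snoRNP and all 5 nucleolar genes, beside 50.4% of all tested genes. The median was −0.65 (all genes −0.01), and both combination libraries were below both JQ1 libraries for 24 of 38 genes (63.2%), beside 21.3% of all genes, and above for 0, beside 19.7%. By edgeR 0 of the 38 genes were called, where 0.0213% of all tested genes passed. At an unadjusted p under 0.05, 12 genes were lower and 0 higher, beside 7.3% and 6.81% of all genes. DESeq2 called 2 of the 38 genes and 1.58% of all genes it tested, and limma voom 0 of the 38 and 0.0355% of all. The smallest adjusted p was that of Nop56, 0.127 at a log2 fold change of −1.87 (SE 0.43). Fbl and Nop2, above vehicle in both JQ1 libraries, had values of −1.44 (SE 0.43) and −1.30 (SE 0.44) here.

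Measured against all 6 other libraries together, both combination libraries were the lowest for 16 of the 38 genes (42.1%) and the highest for 0, beside 12.8% and 12.5% of all tested genes. These 16 are Nop56, Nop58, Fbl, Dkc1, Rrp9, Ncl, Npm1, Ddx21, Wdr43, Nat10, Ltv1, Bop1, Wdr12, Noc2l, Polr1b and Rrn3. They include 5 of 8 snoRNP genes, 3 of 5 nucleolar genes and 2 of 5 RNA polymerase I genes.

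**Figure D5:**
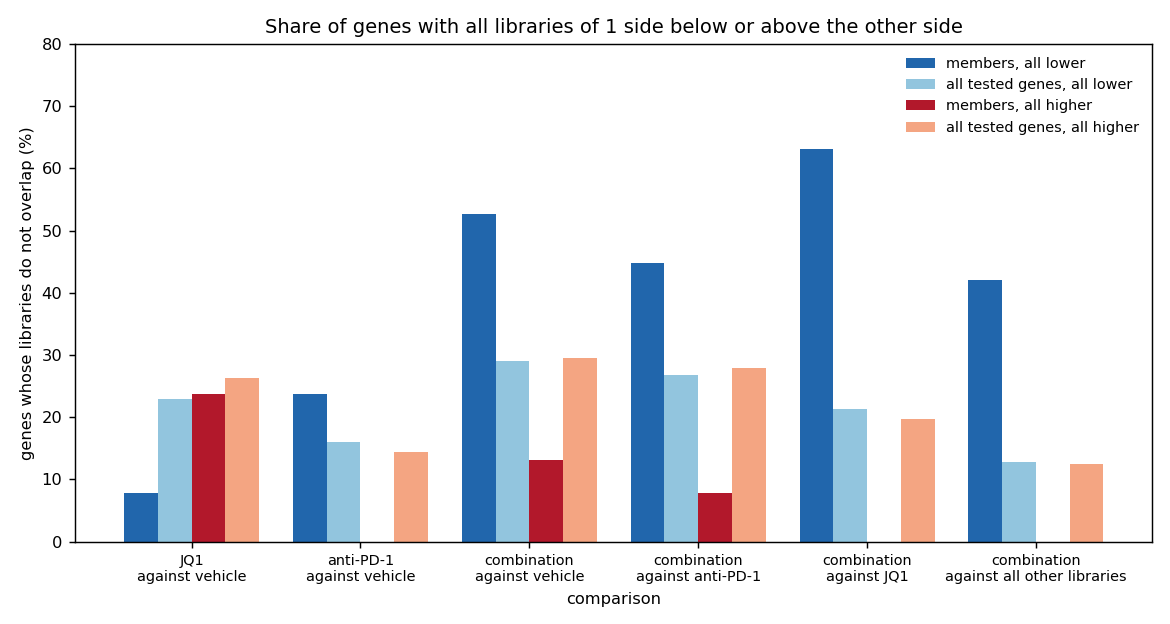
Share of genes (%) for which all libraries of the group named in each comparison lie below (blue) or above (red) all libraries it is compared with, for the 38 genes (dark) and all 14085 tested genes (light). For the combination against JQ1 the share below is 63.2% of the 38 genes and 21.3% of all genes.

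Between JQ1 alone and vehicle no gene of the 38 passed the test. By edgeR 0 of 38 genes were called, as 0% of all tested genes were, and DESeq2 and limma voom also called 0 of the 38, beside 0.325% and 0.0071% of all genes each tested. The median was 0.12, beside 0.07 over all genes, and 13 of 38 genes were negative, beside 46.2%. At an unadjusted p under 0.05 there was 1 gene, Mybbp1a, beside 10.1% of all genes. Its log2 fold change was 0.95 (SE 0.31, edgeR adjusted p = 0.443). Both JQ1 libraries were above both vehicle libraries for 9 genes, among them Fbl, Gar1, Gnl3, Utp20 and Nop2, and below for 3, Rrp9, Bms1 and Noc2l. These shares, 23.7% and 7.89%, stand beside 26.3% and 22.9% of all tested genes.

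Anti-PD-1 alone gave 0 calls among the 38 genes by edgeR, DESeq2 and limma voom, where they called 0%, 0.0416% and 0% of all genes tested. At an unadjusted p under 0.05 there were 0 of the 38 genes, beside 1.97% of all genes. The median was −0.10, beside −0.0004 over all genes. The largest difference was that of Nop2, from 8.25 and 7.34 CPM in vehicle to 3.84 and 4.88 in anti-PD-1, a log2 fold change of −0.84 (SE 0.41, edgeR adjusted p = 1). Both anti-PD-1 libraries were below both vehicle libraries for 9 of 38 genes, beside 16% of all genes, and above for 0, beside 14.4%. With a median standard error of 0.39, changes of the size seen for most of these genes were not detectable with 2 libraries a group.

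Averaged over both backgrounds, JQ1 changed 1 of the 38 genes, Rrp9, at −1.15 (SE 0.30, edgeR adjusted p = 0.0458), where 8.28% of all tested genes passed. The call ended whichever of the 8 libraries was left out (adjusted p from 0.0530 to 0.169). Without combination replicate 1 the genes that passed were Nop56, Wdr43 and Bms1, lower, and Mybbp1a, higher, at 0.78, beside 11.4% of all tested genes. Wdr43 at −0.80 (SE 0.22) and Nop56 at −0.89 (SE 0.29) missed the threshold, with adjusted p of 0.0510 and 0.0760. In all, 22 of 38 genes were negative, beside 47.1% of all tested genes, with a median of −0.09. For 0 of the 38 genes did the 4 JQ1-treated libraries separate from the 4 others, beside 9.35% of all genes below and 10.2% above. The highest values were those of Noc4l and Mybbp1a, at 0.77 (SE 0.31) and 0.63 (SE 0.22), neither of which passed.

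The interaction asks whether the effect of JQ1 differed between mice with and without anti-PD-1. By edgeR 0 of 38 genes passed, as 0% of all tested genes did, and DESeq2 and limma voom called 0 of the 38, beside 0.0681% and 0% of all. The median of the interaction was −0.58, beside −0.01 over all tested genes, and 31 of 38 genes were negative, beside 50.8% of all genes. At an unadjusted p under 0.05 there were 2 genes, beside 6.25% of all tested genes, Rrp9 at −1.51 (SE 0.61) and Nop56 at −1.44 (SE 0.58), with adjusted p of 0.753 and 0.757. A difference in JQ1 effect between the backgrounds was therefore not shown for any of the 38 genes.

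In the combination against vehicle, other genes of the pathway had a median close to that of all tested genes. Of 150 further ribosome biogenesis genes 146 were tested, and their median was 0.10, with 61 of 146 negative, 2 called lower and 0 called higher, beside 4.8% of all tested genes called. Both combination libraries were below both vehicle libraries for 40 of the 146 genes (27.4%) and above for 44 (30.1%). By role the medians were −0.27 over 12 other snoRNP genes, 0.09 over 45 small subunit genes, 0.06 over 50 large subunit genes, 0.39 over 15 other RNA polymerase I genes and 0.56 over 24 genes of the exosome and of trimming. The 2 called genes were Nle1, a large subunit assembly factor, at −2.47 (SE 0.54, edgeR adjusted p = 0.0361), and Utp4, of the small subunit processome, at −1.38 (SE 0.31, edgeR adjusted p = 0.0379). Nle1 had 0.421 and 2.14 CPM in the combination against 7.79 and 9.06 in vehicle, and Utp4 had 21.0 and 24.1 against 44.2 and 73.6.

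The other genes with the smallest p of each list did not pass in that comparison. Among snoRNP genes Nop10 and Ruvbl1 were at −0.89 (SE 0.28) and −1.01 (SE 0.34), and Znhit3, with between 1 and 24 counts a library, at 3.14 (SE 1.10). Ftsj3 and Dimt1, which methylate ribosomal RNA, were at −1.08 and −1.29, and the helicase Ddx51 and the nuclease Fcf1 at 1.61 and 1.12. The exosome subunit Exosc9, its cofactor Mphosph6 and the nuclease Eri1 were at 1.35, 1.49 and 1.47, and the RNA polymerase subunits Polr2f and Polr2e and the initiation factor Taf1a at 1.20, 0.74 and 1.06. Against JQ1 alone the median of the 146 genes was −0.17, 90 of 146 were negative and 0 were called, and over the 12 other snoRNP genes it was −0.57, with 11 of 12 negative. Both combination libraries were below both JQ1 libraries for 44 of the 146 genes (30.1%), beside 21.3% of all tested genes, and above for 22 (15.1%), beside 19.7%. Averaged over both backgrounds JQ1 called 3 of the 146 genes higher, Ddx51 at 1.48, Rsl1d1 at 0.94 and Znhit3 at 2.80, and 1 lower, Utp4 at −0.84, beside 8.28% of all tested genes called. Against anti-PD-1 the combination called 1, Ddx51, at 1.96, beside 4.23% of all.

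In the MYC family, Mycn had 45.5 and 62.0 CPM in vehicle, 19.0 and 40.3 in JQ1, 73.3 and 42.1 in anti-PD-1, and 5.05 and 0.659 in the combination. The combination values rest on only 12 and 4 counts. Its log2 fold change against vehicle was −4.57 (edgeR adjusted p = 0.0276), or 1.15 with a term for the ribosomal RNA share. Myc itself was at −0.67 (SE 0.38, adjusted p = 0.274). Max at −0.63, Mga at −0.76, Mnt at −0.08 and Mxi1 at −0.05 did not pass against vehicle either. Mycl (2.95), Mxd1 (1.70) and Mxd4 (1.77) were called higher, of which Mycl turned to −0.04 with that term. Of the 9 genes of this family 3 were thus called higher and 1 lower, beside 4.8% of all tested genes called. Averaged over both backgrounds JQ1 called Mycn and Max lower and Mycl, Mxd1 and Mxd4 higher, beside 8.28% of all tested genes. Max was then at −0.67 (edgeR adjusted p = 0.0397) and Mycn at −2.76. Against anti-PD-1 the combination called Mycn lower and Mycl and Mxd1 higher, beside 4.23%. That term turned Mycl and Mycn in these comparisons too.

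Other measures differed in the same libraries. The ribosomal RNA share was highest in the combination, at 46.0% and 52.5% of counts, beside 21.8% to 35.0% in the other libraries. Share and combination therefore cannot be fully told apart in a fit. With that share as a term the median of the 38 genes was −0.89 and 0 of them were called, beside 0.0142% of all tested genes. With ribosomal RNA genes removed before scaling the median was −0.52 and 3 genes were called, beside 4.81% of all. Markers of proliferation, of which 11 of 12 were tested, summed to 118 and 135 CPM in vehicle, 167 and 71.2 in JQ1, 158 and 77.8 in anti-PD-1, and 25.3 and 42.5 in the combination, with 2 at 0 in combination replicate 1. All 11 were negative in the combination against vehicle, with a median of −1.54, and 2 were called lower. Of all tested genes 47.6% were negative, 4.8% were called in either direction and 2.36% were called lower.

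Markers of airway cells summed to 655 and 310 CPM in the combination against 49.0 and 21.1 in vehicle, 488 and 178 in JQ1 and 140 and 60.0 in anti-PD-1. Of these 10 markers 8 were positive in the combination against vehicle and 2 were called higher, beside 4.8% of all tested genes called. Their median log2 level over vehicle was 2.73 in combination replicate 1 and 0.32 in replicate 2. In replicate 2, 6 of them had under 10 counts, as 4 had in each vehicle library. Markers of fibroblasts summed to 665 and 1071 CPM, below the other 6 libraries, which ranged from 1139.6 to 2568. The single fibroblast markers were mixed. Of 9 tested, 6 were negative in the combination against vehicle, and 2 were called higher and 1 lower, beside 4.8% of all tested genes called. For endothelial markers the sums were 215 and 212 CPM in the combination, above 94.3 to 204 elsewhere. Of the 10 endothelial markers 9 were positive against vehicle and 2 were called higher, beside the same 4.8%. Muscle markers summed to 141 and 68.1 CPM in the combination, below 251 to 565 elsewhere. Only 4 of 9 muscle markers were tested, all 4 negative against vehicle and 1 called lower, beside that 4.8%. In each combination library 3 of these 4 had under 10 counts. Macrophage markers overlapped, at 125 and 288 CPM in the combination beside 141 to 189. T cell markers, of which 1 of 10 passed the filter, summed to between 0.785 and 4.96 CPM in each library. The part of these measures in the lower levels of the 38 genes was not tested. With 2 libraries a group, sex, depth, ribosomal RNA share and treatment cannot be fully told apart.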

How the data were processed

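Poly(A) RNA of 8 libraries was profiled, per the labels' protocols, from frozen tissue by magnetic particle isolation, DNase treatment and the TruSeq RNA Access kit, whose probes capture coding regions. The submitters' processing notes name bcl2fastq, STAR, featureCounts and DESeq2 and the builds mm10 and GRCm38. For annotation, strand use and settings these sources name nothing. The authors deposited a table of raw read counts per gene symbol and a normalized table whose signal is the raw count divided by 1 constant per library: 100% of its values came back as whole reads within 0.05 reads, and a test on these reads, added after the data were seen, called 676 genes in the combination against vehicle, as many as the raw counts.

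Counts were tested with the edgeR 4.0.16 quasi-likelihood test (robust, TMM factors, filterByExpr) in R 4.3.3, in 1 model over the 8 libraries that gave each group its own mean, leaving 4 residual degrees of freedom. Total counts of 2719816 to 15224108 and 2 libraries a group limit the precision, and the biological coefficient of variation was 0.332. Benjamini-Hochberg adjustment ran within each of 7 contrasts over 14085 genes, and an adjusted p under 0.05 made a call. CPM are counts over the filtered total times the TMM factor, log2 values of libraries use a pseudocount of 0.5, and fold changes a prior count of 0.125. Alternatives were other scalings, filters, tools (DESeq2 1.42.0, limma 3.58.1), covariates and left-out libraries. Positions come from GENCODE vM21, and promoter windows from RefSeq on GRCm38.p6.

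The 38 genes, the gene lists and the contrasts were chosen with earlier results of these data known. Values in every library are given for genes called in any contrast and for the highest and lowest of each role in the combination against vehicle. Levels are also given for a few genes chosen after their values were seen, among them Dkc1, Npm1 and Nop2. Of each other list up to 3 genes are named by p, with any others that passed. Replicates were numbered in the order of the records. The engineered genes of the mouse model are not reported here.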

Additional observations from a re-analysis of the deposited data

How the results depend on the processing

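The number of the 38 genes called is given here with the percentage of all tested genes called under the same setting. With no filter and with DESeq2 that percentage is over 26426 genes, beside 14085 in the main fit. Those 26426 take in genes that the filter on low counts left out, whereas all 38 genes passed it. The 2 kinds of percentage are therefore not alike as backgrounds. In the combination against vehicle it was 2 (4.8%), and became 10 (14%) with total counts and no factors, 6 (7.54%) with no filter on low counts, 4 with DESeq2 (6.3%) and with limma trend on the normalized table (6.05%), 1 (2.41%) with a sex term, and 0 with only the compared libraries in the fit (1.88%) or a ribosomal RNA share term (0.0142%). Against anti-PD-1 it was 1 (4.23%), and became 9 (13%) with total counts, 4 with no filter (7.27%) and with DESeq2 (6.03%), 3 (5.75%) with limma trend, and 0 with upper-quartile factors (3.98%), limma voom (3.51%), only the compared libraries (0.446%), a sex term (1.51%) or the ribosomal RNA share (0.0071%). Against JQ1 it was 0 (0.0213%), and became 4 (1.7%) with total counts, 3 (2.54%) with no filter and 2 (1.58%) with DESeq2. For JQ1 over both backgrounds it was 1 (8.28%), and became 2 with RLE factors (8.7%), total counts (11.3%), limma trend (7.84%) or ribosomal RNA genes removed (7.91%), 4 (9.56%) with no filter, 3 (8.17%) with DESeq2, and 0 with upper-quartile factors (8.33%), a sex term (6.23%) or the ribosomal RNA share (0.0213%). No alternative called any of the 38 genes in JQ1 against vehicle, anti-PD-1 against vehicle or the interaction. When each library was left out in turn, 0 to 3 genes were called in the combination against vehicle, 0 to 2 against anti-PD-1, 0 to 4 for JQ1 over both backgrounds and 0 to 0 in the other comparisons. Over all tested genes, calls in the combination against vehicle were 344 higher and 332 lower, 185 and 1781 with total counts, 408 and 242 with upper-quartile factors, 292 and 560 with limma trend, 500 and 293 at a mean count of at least 50, and 821 and 1171 with no filter. The cause of these changes was not tested. Fits with fewer libraries also have fewer degrees of freedom.

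Medians of the 38 genes moved by more than the spread between libraries as follows. With total counts they were −1.03 in the combination against vehicle, −0.81 against anti-PD-1, −1.17 against JQ1, −0.32 for JQ1 over both backgrounds and −1.08 in the interaction. With a ribosomal RNA share term they were −0.89, −0.61, −0.82 and −0.28 in the first 4 of these. Limma trend gave −0.68 against vehicle and −0.44 against anti-PD-1, no filter −0.59 against vehicle, a mean count of at least 50 −0.20 against anti-PD-1 and a sex term −0.43 in the interaction. With a library left out, medians ranged from 0.04 to 0.20 for JQ1 and from −0.22 to 0.0257 for anti-PD-1 against vehicle, from −0.60 to −0.41, −0.49 to −0.34 and −0.80 to −0.56 for the combination against vehicle, anti-PD-1 and JQ1, from −0.16 to −0.035 for JQ1 over both backgrounds, and from −0.75 to −0.47 in the interaction. The ribosomal RNA share term turned called directions for Mycl, to −0.0438, −0.21 and −0.43, and for Mycn, to 1.15, 0.81 and 0.88, in the combination against vehicle, against anti-PD-1 and JQ1 over both backgrounds, and for Znhit3, to −1.80, in the last. Since that term cannot be fully told apart from the combination, no meaning is given to these turned directions. No paired analysis was possible because the labels give no replicate numbers that libraries of different groups share. In combination replicate 1, the shallowest library, 5 of the 38 genes had under 10 counts.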
